A study of Mus musculus with 8 samples.

Results

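The Myc, Max and Mxd network is a set of transcription factors of the basic helix-loop-helix leucine zipper type that share Max as a partner. Its 10 genes were taken by their symbols (Myc, Mycn, Mycl, Max, Mxd1, Mxd3, Mxd4, Mxi1, Mnt and Mga) from tables of 24279 genes, and all 10 were found and tested in both comparisons. Myc proteins bind DNA as heterodimers with Max at the E-box and raise transcription of genes for growth, ribosome production and nucleotide synthesis. Mxd proteins, Mxi1 and Mnt also pair with Max, bind the same element and recruit Sin3 corepressors. Mga, a large protein with a T-box besides its Max-binding domain, joins Max in the Polycomb complex PRC1.6, which silences germline genes in embryonic stem cells. In mouse embryonic stem cells Myc and Mycn are known to support self-renewal under LIF, and Myc RNA is known to be a target of STAT3 signalling.

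The 8 RNA libraries came from mouse embryonic stem cells, 2 for each of 4 groups, collected after 6 days without the cytokine LIF (leukemia inhibitory factor). Per the labels, noDox cells lack Argonaute 1 to 4 (AGO1-4-/-), the proteins through which microRNAs act, DOX cells have the same deletions and express only AGO2 under doxycycline, NLS cells have them and express only AGO2 fused to a nuclear localization signal (NLS-AGO2), and E14 is the wild-type line. The labels give every group, E14 included, the cell description of a line with doxycycline-inducible HA-Flag-AGO2, passages 8 to 15, and 2.5 µg/ml doxycycline daily. The study's title asks whether nuclear silencing by microRNAs is needed for differentiation. The labels do not say whether the 2 libraries of a group came from separate cultures or clones.

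The files give 1 level per group in RPKM (reads scaled to transcript length and to the mapped total), pooled by the authors over 2 libraries, so no spread between libraries can be shown and the depth is unknown. The tables named for DOX and for E14 held the same values in 24279 of 24279 lines, and the group is written DOX/E14 below because the values belong to one or the other. Each group was compared with noDox by the authors with Cuffdiff; "rose" and "fell" below mean q < 0.05 in the authors' deposited table. Levels per kilobase can be compared between genes. Log2 folds are of the RPKM of a group over noDox with no pseudocount, and their standard error (SE) is the one implied by the deposited test statistic; the deposited p-values are smaller than that SE gives, by a median factor of 1.41 in z. Both comparisons share the noDox libraries, and each table was scaled on its own, so that noDox levels given with NLS are 1.03 times higher. Of the Argonaute genes, Ago1 had levels of 0.0159 (noDox), 16.7 (DOX/E14) and 0.861 RPKM (NLS), Ago2 had 26.1, 32.6 and 35.7 RPKM, and Ago3 had 7.56, 3.001 (where it fell) and 14.5 RPKM (where it rose). The Ago1 level goes against a reading of DOX/E14 as cells with AGO2 alone, and the Ago2 and Ago3 RNA in noDox and the Ago3 RNA in NLS do not match labels that give noDox no Argonaute and NLS only NLS-AGO2. Which part of each gene was deleted is not given in the sources used here, so RNA over the whole gene does not check the loss of protein. The Y-linked genes Ddx3y and Uty were listed at 0 in noDox, had 11.1 and 7.66 RPKM in DOX/E14, and had 0.311 and 0.168 RPKM in NLS, and Argonaute status and line therefore cannot be told apart.

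In DOX/E14 the RNA of Myc and Mycl was higher than in noDox, and that of Max and of most of its other partners was lower. Of the 10 genes 2 rose (Myc and Mycl), 6 fell (Max, Mxd1, Mxd4, Mxi1, Mnt and Mga) and 2 did not pass (Mycn and Mxd3). Among all 12382 genes tested there, 55.5% were called, 27.2% higher and 28.3% lower, so a call as such is common there. The median log2 fold of the 10 genes was −0.69, beside 0.0075 over all tested genes. In NLS 1 of the 10 genes rose (Mycl) and 0 fell, where 8.36% of 12936 tested genes were called, 3.97% higher and 4.39% lower. At an unadjusted Cuffdiff p under 0.05 in the authors' deposited table the NLS count was 2, with Myc as the second, beside 2697 of all 12936 tested genes. Mycl and Myc were both higher than noDox. The median log2 fold of the 10 in NLS was 0.085, beside −0.0077 over all tested genes.

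**Figure D1:**
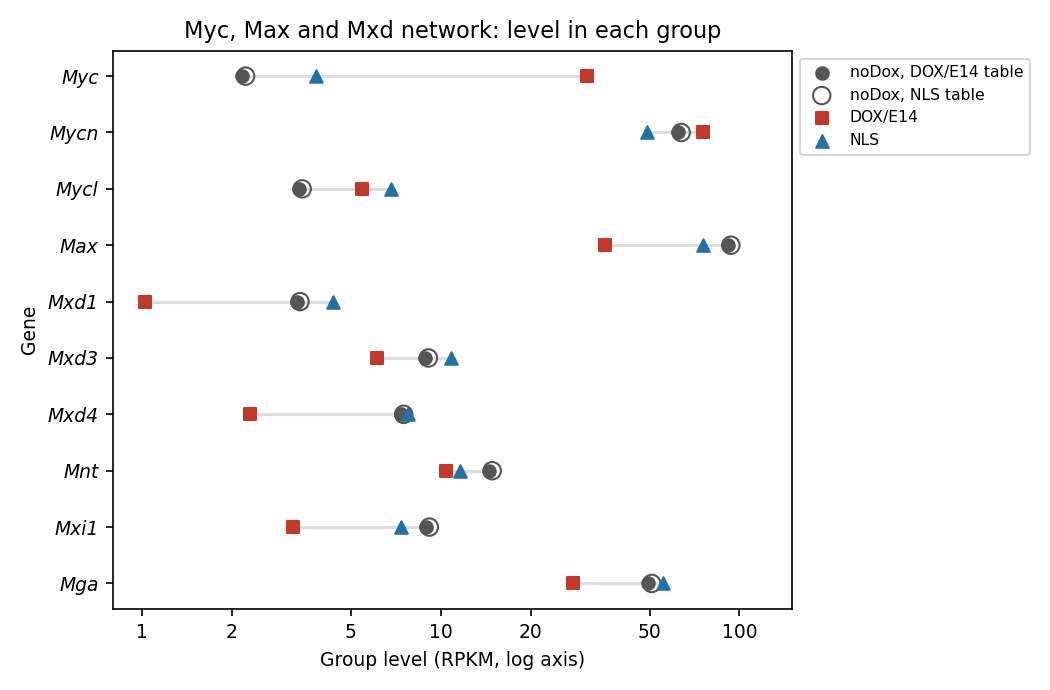
Level of each of the 10 genes in RPKM (horizontal log axis) in noDox as given in the DOX/E14 table (filled circle) and in the NLS table (open circle), in DOX/E14 (square) and in NLS (triangle), 1 pooled value per group. Myc stands at 30.9 RPKM in DOX/E14 and below 4 RPKM elsewhere, whereas Max, Mga and the 5 repressors lie lowest in DOX/E14.

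Myc, the founding member, which lies on mouse chromosome 15 (61985341 to 61990361 on the plus strand, GRCm38), was the member with the lowest RNA level in noDox and, in DOX/E14, the largest log2 fold. It stood at 2.16 RPKM in noDox and 30.9 RPKM in DOX/E14. The DOX/E14 level was thus 14.3 times that of noDox, a log2 fold of 3.84 ± 0.38 (SE; the authors' deposited table lists q at 0.00017, its lowest value). In the NLS table Myc stood at 2.22 RPKM in noDox and 3.83 RPKM in NLS. That log2 fold of 0.79 (SE 0.56) did not pass (q = 0.23 in the authors' deposited table), and its 95% interval of −0.31 to 1.88 does not reach the DOX/E14 value. The difference between the folds themselves, NLS minus DOX/E14, was −3.05 on the log2 scale (95% interval −4.37 to −1.73), which passed an adjusted threshold of 0.05 in a z test over 11905 genes.

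Mycn (chromosome 12, 12936093 to 12941836, minus strand), the paralogue that is abundant in the early embryo, was the most highly expressed Myc gene in every group. Its level was 62.2 RPKM in noDox and 75.7 RPKM in DOX/E14, and 63.8 and 48.9 RPKM in noDox and NLS of the other table. Neither the log2 fold of 0.28 ± 0.25 (SE; the authors' deposited table lists q at 0.17) nor that of −0.38 (SE 0.30, q = 0.30 in the same source) passed. The 95% intervals were −0.21 to 0.78 and −0.97 to 0.21. The 2 folds have opposite signs, but their difference of −0.67 (95% interval −1.44 to 0.11) did not pass the z test either.

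Mycl (chromosome 4, 122995588 to 123002490, plus strand), a weaker transforming relative of Myc, was the member that rose in both comparisons. It went from 3.35 RPKM in noDox to 5.45 RPKM in DOX/E14, a log2 fold of 0.70 ± 0.35 (SE; the authors' deposited table lists q at 0.012). In the NLS table it went from 3.43 to 6.83 RPKM, which is a log2 fold of 0.99 ± 0.45 (SE; the authors' deposited table lists q at 0.033). The folds differed by 0.29 (95% interval −0.82 to 1.41), which did not pass the z test.

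The makeup of the Myc RNA pool differed between the groups. Summed over Myc, Mycn and Mycl noDox had 67.8 RPKM, DOX/E14 112 and NLS 59.6. Mycn made up 91.9% of this sum in noDox but 67.5% in DOX/E14, and 82.1% in NLS, while Myc made up 3.19%, 27.6% and 6.43%. Mycn RNA was 28.8 times as abundant as Myc RNA in noDox, 12.8 times in NLS and 2.45 times in DOX/E14. Mycl held 4.95% of the sum in noDox and 4.86% in DOX/E14 but 11.5% in NLS. From the highest level down, the order in noDox was Max, Mycn, Mga, Mnt, Mxi1, Mxd3, Mxd4, Mycl, Mxd1 and Myc. In DOX/E14 it was Mycn, Max, Myc, Mga, Mnt, Mxd3, Mycl, Mxi1, Mxd4 and Mxd1, and in NLS Max, Mga, Mycn, Mnt, Mxd3, Mxd4, Mxi1, Mycl, Mxd1 and Myc. With 1 pooled value a group, whether neighbours in these orders differ beyond their spread was not tested.

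Max, the shared partner (chromosome 12, 76937269 to 76962323, minus strand), had the highest RNA level of the network in noDox and in NLS, and ranked behind Mycn in DOX/E14. It fell from 91.2 to 35.6 RPKM in DOX/E14, a log2 fold of −1.36 ± 0.26 (SE; the authors' deposited table lists q at 0.00017). In the NLS table it stood at 93.6 RPKM in noDox and 75.7 RPKM in NLS, a log2 fold of −0.31 (95% interval −0.89 to 0.28) that did not pass. The folds differed by 1.05 (95% interval 0.28 to 1.83), which did not pass the z test after adjustment. Max RNA was 1.35 times the summed Myc RNA in noDox and 1.27 times in NLS, but 0.317 times in DOX/E14.

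**Figure D2:**
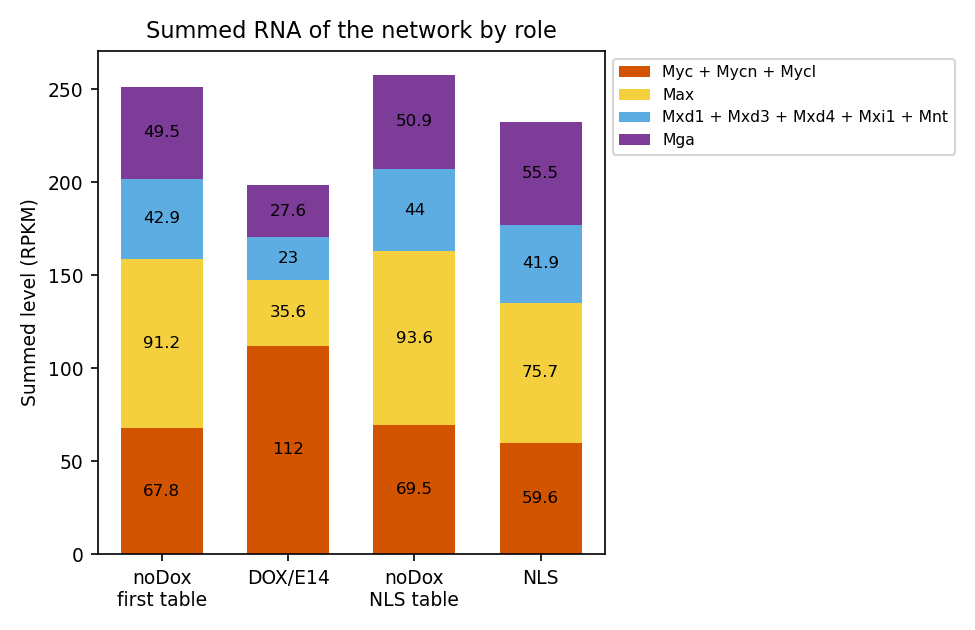
Summed level in RPKM (vertical axis, from 0) of the Myc genes, of Max, of the 5 Mxd-type repressors and of Mga, for noDox in the DOX/E14 table, DOX/E14, noDox in the NLS table and NLS, 1 pooled value each. The Myc segment is 67.8 RPKM in noDox and 112 in DOX/E14, and the Max segment 91.2 and 35.6 RPKM.

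The repressor partners lay below noDox in DOX/E14 in 5 of 5 cases, and 4 of these passed, where 28.3% of all 12382 tested genes were called lower. Mxd1, formerly Mad1, a repressor known to be induced as cells leave the cycle and differentiate, fell from 3.29 to 1.02 RPKM (a log2 difference of −1.69 ± 0.41 SE; the authors' deposited table lists q at 0.00017). It stood at 3.38 RPKM in noDox and 4.37 RPKM in NLS, a log2 fold of 0.37 (SE 0.42) that did not pass. Mxd1 was the 1 gene besides Myc among the 10 whose folds differed between the comparisons by the z test, NLS being higher by 2.06 on the log2 scale (95% interval 0.92 to 3.20). Of all 11905 genes in this test 13.0% passed, 9.77% with NLS above DOX/E14 and 3.18% with NLS below, and of the 10 members 1 passed in each direction. With SEs taken from the deposited p-values instead, 6 of the 10 passed: Myc, Max, Mxd1, Mxd4, Mxi1 and Mga.

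Mxd4, another Mad-type repressor, fell from 7.33 to 2.30 RPKM in DOX/E14 (a log2 difference of −1.67 ± 0.52 SE; the authors' deposited table lists q at 0.00061). It stood at 7.51 RPKM in noDox and 7.75 RPKM in NLS, a log2 fold of 0.044 with a 95% interval of −1.02 to 1.10. Mxi1, a repressor also known as Mad2, fell from 8.92 to 3.20 RPKM in DOX/E14, a log2 fold of −1.48 ± 0.31 (SE; the authors' deposited table lists q at 0.00017). In the NLS table Mxi1 stood at 9.15 RPKM in noDox and 7.36 RPKM in NLS (log2 fold −0.31, SE 0.35), which did not pass. Mxd1, Mxd4 and Mxi1 thus each stood at about the same fraction of noDox in DOX/E14, with noDox levels 3.23, 3.18 and 2.79 times those of DOX/E14.

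Mnt, the broadly expressed antagonist and the most abundant of the 5 in every group, moved least among those called. It fell from 14.5 to 10.4 RPKM in DOX/E14 (a log2 difference of −0.48 ± 0.27 SE; the authors' deposited table lists q at 0.028), and the 95% interval from the implied SE, −1.01 to 0.053, spans 0 although the deposited p-value passed. In the NLS table it stood at 14.9 RPKM in noDox and 11.6 RPKM in NLS, a log2 fold of −0.36 (SE 0.33) that did not pass. Mxd3, a Mad-type repressor expressed in cycling cells, had 8.87 RPKM in noDox against 6.10 in DOX/E14, and 10.9 RPKM in NLS. Its implied SE was the largest of the network (1.01 and 1.03), and neither log2 fold, −0.54 and 0.26, passed.

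Mxd3 shares 105 exonic bases with Prelid1 on the opposite strand, and the Prelid1 level was 82.4 RPKM (noDox), 122 (DOX/E14, where it rose) and 65.8 (NLS). Mxd4 shares 514 exonic bases with the antisense gene Gm42846, and Mxi1 shares 194 with Gm10197 on the opposite strand. How the authors' counting used strand is not given in the sources used here, so the values of these 3 members are uncertain to that extent. Summed over the 5 repressors noDox had 42.9 RPKM, DOX/E14 23.0 and NLS 41.9. The summed Myc RNA was 1.58 times this in noDox and 1.42 times in NLS, but 4.87 times in DOX/E14.

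**Figure D3:**
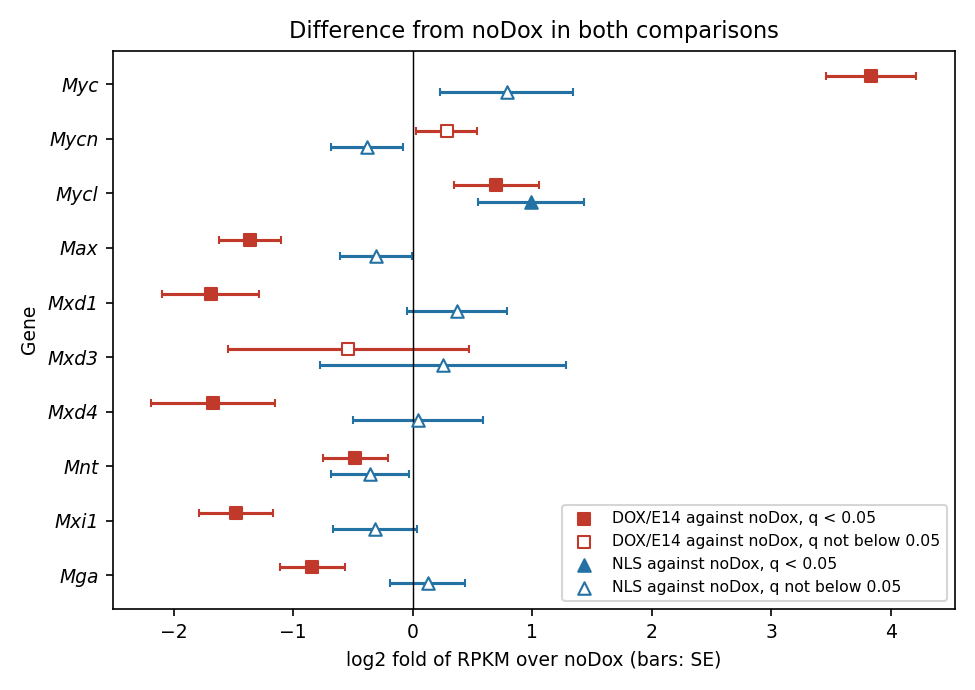
Log2 fold of RPKM over noDox (horizontal axis) for each of the 10 genes in DOX/E14 (squares) and NLS (triangles), with bars of 1 SE as implied by the deposited statistic; filled symbols passed q < 0.05. In DOX/E14 Myc lies at 3.84 and Mxd1 at −1.69, while in NLS the folds run from −0.38 (Mycn) to 0.99 (Mycl).

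The promoters of the falling members can be set beside the element that Max dimers bind, the E-box CACGTG, which reads the same on both strands. Promoter sequences of 300 bases (250 before the start and 50 after it, RefSeq on GRCm38.p6) were at hand for 9 of the 10 genes, all but Myc, and 3 of these 9 (Max, Mxd4 and Mnt) held 1 CACGTG each. Of all 27025 genes with a promoter 8.09% held it. The sequences of Max and Mxd4, the called members of this kind with the largest falls, are given 5′ to 3′ with the E-box in capitals. The E-box begins 3 bases before the start in Max, 219 before it in Mxd4 and 123 before it in Mnt.
Max, chr12:76962199-76962498, minus strand: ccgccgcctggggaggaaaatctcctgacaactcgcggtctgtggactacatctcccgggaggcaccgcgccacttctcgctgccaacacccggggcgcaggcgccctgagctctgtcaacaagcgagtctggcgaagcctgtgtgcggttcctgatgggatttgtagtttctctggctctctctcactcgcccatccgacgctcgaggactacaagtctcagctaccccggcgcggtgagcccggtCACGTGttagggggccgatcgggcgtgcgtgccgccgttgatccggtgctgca
Mxd4, chr5:34187661-34187960, minus strand: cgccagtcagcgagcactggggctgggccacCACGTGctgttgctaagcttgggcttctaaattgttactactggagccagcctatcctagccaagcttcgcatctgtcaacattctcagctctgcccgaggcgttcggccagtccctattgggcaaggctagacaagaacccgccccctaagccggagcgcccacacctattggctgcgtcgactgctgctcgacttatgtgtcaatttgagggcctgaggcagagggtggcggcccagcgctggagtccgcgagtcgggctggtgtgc
Mxd1, Mxi1 and Mga, which fell as well, held no CACGTG in their windows.

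Since the groups differ in Argonaute, the 3′ UTRs of the members were searched for letters that pair with the seeds of microRNAs known in embryonic stem cells or as regulators of Myc genes. The mature sequences (RefSeq, GRCm38.p6) are given 5′ to 3′ with the seed, bases 2 to 8, in capitals. miR-294-3p and miR-302b-3p, of the families that dominate in these cells, share their seed, and that of miR-17-5p is the same run shifted by 1 base.
let-7a-5p: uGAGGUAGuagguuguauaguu
miR-294-3p: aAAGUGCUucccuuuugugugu
miR-302b-3p: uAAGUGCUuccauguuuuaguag
miR-17-5p: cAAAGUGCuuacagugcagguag
miR-34a-5p: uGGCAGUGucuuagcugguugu
The levels of these mature microRNAs were not measured here.

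AGCACTT, the complement of the shared miR-294 and miR-302 seed, occurred in the longest annotated 3′ UTR (GENCODE M21, GRCm38, sense strand) of 6 of the 10 genes: Mycn, Mxd1, Mxd3, Mnt, Mxi1 and Mga. Of 21022 genes with a 3′ UTR 14.7% held it, but the median 3′ UTR was 961 bases over all genes and 2188 bases over the 10. The DOX/E14 log2 folds of these 6 ran from −1.69 (Mxd1) to 0.28 (Mycn), and those of the 4 without it from −1.67 (Mxd4) to 3.84 (Myc). Myc, with a 3′ UTR of 466 bases, and Max, with one of 1299 bases, held none of the strings searched. The let-7 match of bases 2 to 7 followed by A, TACCTCA, was found in 6 of the 10 (Mycn, Mycl, Mxd1, Mxd4, Mnt and Mga) and in 9.78% of all genes, and the full let-7 match CTACCTC in Mxd1 and in 9.02% of all genes. A match to miR-17 (GCACTTT) was held by 4 of the 10 and 11.7% of all genes, and one to miR-34a (CACTGCC) by 4 of the 10 and 14.3% of all genes. The windows below show the matches in capitals, for Mycn because the windows around its AGCACTT and one TACCTCA overlap, and for Mxd1 and Mxi1 because these fell most among the members with AGCACTT.
Mycn with AGCACTT, chr12:12936129-12936157, minus strand: ctgcaccttagAGCACTTtgaaatacctc
Mycn with TACCTCA, chr12:12936117-12936145, minus strand: gcactttgaaaTACCTCAtgtttatgaaa
Mxd1 with AGCACTT, chr6:86648911-86648939, minus strand: tgtattcttagAGCACTTgacaggctaac
Mxd1 with CTACCTC, chr6:86650219-86650247, minus strand: ggaacattgtcCTACCTCagagatagatg
Mxi1 with AGCACTT, chr19:53372863-53372891, plus strand: tagttacgttcAGCACTTgtctcatttaa
A match of letters is a description of the transcript, not a measured site.

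Mga (chromosome 2, 119872503 to 119970129, plus strand), the scaffold that brings Max into PRC1.6, fell from 49.5 to 27.6 RPKM in DOX/E14, a log2 fold of −0.84 ± 0.27 (SE; the authors' deposited table lists q at 0.00017). It stood at 50.9 RPKM in noDox and 55.5 RPKM in NLS, a log2 fold of 0.13 with a 95% interval of −0.50 to 0.75. The folds differed by 0.97 (95% interval 0.15 to 1.78), which did not pass the z test after adjustment. Over 16 subunits of PRC1.6, Max and Mga included, 5 rose and 5 fell in DOX/E14 and 6 did not pass, with a median log2 fold of −0.077. The shares of 31.3% in each direction are near the 27.2% and 28.3% of all tested genes. Tfdp1, the dimer partner of E2F6, rose from 18.1 to 78.9 RPKM (a log2 difference of 2.12 ± 0.27 SE). Pcgf6, the Polycomb ring finger protein particular to this complex, rose from 19.9 to 36.4 RPKM, and Yaf2 rose from 2.61 to 5.31 RPKM, while its paralogue Rybp fell from 29.3 to 15.6 RPKM. In NLS 0 of the 16 were called by Cuffdiff in the authors' deposited table, beside 8.36% of all tested genes, and the median was −0.14. An unadjusted p under 0.05 was found there for 5 of the 16 and for 2697 of all 12936 tested genes.

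A list of 28 germline and meiosis genes, of the kind PRC1.6 keeps silent, moved in both directions in DOX/E14. Of 18 tested, 8 rose (44.4%, beside 27.2% of all tested genes), 8 fell (44.4%, beside 28.3%) and 2 did not pass. The other 10 were not tested, 4 of them higher and 6 lower than noDox. Tdrkh, Tdrd1 and Stk31 rose from 0.154 to 3.42, from 0.435 to 3.47 and from 0.479 to 2.04 RPKM. Tuba3a, Smc1b, a meiotic cohesin subunit, and Rpl10l, a testis ribosomal protein, fell from 33.2 to 1.64, from 9.16 to 0.652 and from 104 to 20.5 RPKM. Rpl10l and Tuba3a have close paralogues, so their reads are uncertain. In NLS 3 of 20 tested rose (15.0%, beside 3.97% of all tested genes) and 0 fell (beside 4.39%) by Cuffdiff in the authors' deposited table. There 10 of the 20 had an unadjusted p under 0.05, 2 of them lower than noDox, beside 2697 of all 12936 tested genes. Of the 8 that were not tested 6 were lower and 2 higher in NLS, and the counts of neither comparison describe the whole list. The 3 were Stk31, from 0.490 to 6.31 RPKM (a log2 difference of 3.69 ± 0.79 SE), Mov10l1, a piRNA helicase, from 0.855 to 2.30, and Meioc, listed as Gm1564, from 4.65 to 8.82 RPKM.

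Genes known to be raised by Myc were higher in DOX/E14 almost throughout. Of 50 such genes tested 42 rose, 1 fell and 7 did not pass, a share of 84.0% rising beside 27.2% of all tested genes, and the median log2 fold was 0.91. This list, like the others, was chosen with earlier results of these data known, so its share is a description and not a test. The genes behind the 27.2% were not matched to it in level. Odc1, the rate-limiting enzyme of polyamine synthesis and a classical Myc target, rose from 32.6 to 186 RPKM (a log2 difference of 2.52 ± 0.26 SE). Slc16a1, a lactate transporter, and Bzw2 rose from 13.4 to 52.5 and from 24.1 to 92.3 RPKM. The 1 gene that fell was Tert, the catalytic subunit of telomerase, from 10.4 to 5.83 RPKM. In NLS 2 of the 50 rose (4%, beside 3.97% of all tested genes), 2 fell (4%, beside 4.39%) and 46 did not pass, with a median of 0.0030. Both shares are near those of all tested genes. Ccnd2, cyclin D2, rose from 2.08 to 7.37 RPKM (a log2 difference of 1.82 ± 0.41 SE) and Odc1 from 33.5 to 53.0 RPKM. Tfap4 fell from 18.5 to 10.2 RPKM and Ybx1, a nucleic acid-binding protein, from 116 to 64.7 RPKM.

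The E-box was present in the promoter of 14 of the 41 Myc-induced genes that had one in the table, a share of 34.1% beside 8.09% of all genes.

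Genes known to be held down by Myc split. Of 15 tested in DOX/E14, 8 fell (53.3%, beside 28.3% of all tested genes), 5 rose (33.3%, beside 27.2%) and 2 did not pass, with a median log2 fold of −1.03. Btg1, an antiproliferative gene, fell from 13.3 to 2.64 RPKM (a log2 difference of −2.34 ± 0.31 SE). Txnip, an inhibitor of thioredoxin and glucose uptake that Mondo and Mlx factors are known to activate, fell from 241 to 50.1 RPKM, and Ndrg1 from 15.4 to 3.76 RPKM. The 5 that rose were Gadd45a, Klf6, Ndrg2, Fth1 and Sesn2, with log2 folds from 0.65 (Sesn2) to 1.40 (Gadd45a). In NLS 4 of the 15 rose (26.7%) and 1 fell (6.67%), beside 3.97% and 4.39% of all tested genes. Gadd45a, a growth arrest gene, rose from 11.5 to 40.3 RPKM (a log2 difference of 1.80 ± 0.42 SE), Ndrg2 from 1.19 to 5.03, Klf6 from 16.6 to 27.9 and Btg2 by 0.75 on the log2 scale, while Ndrg1 fell from 15.8 to 9.15 RPKM.

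**Figure D4:**
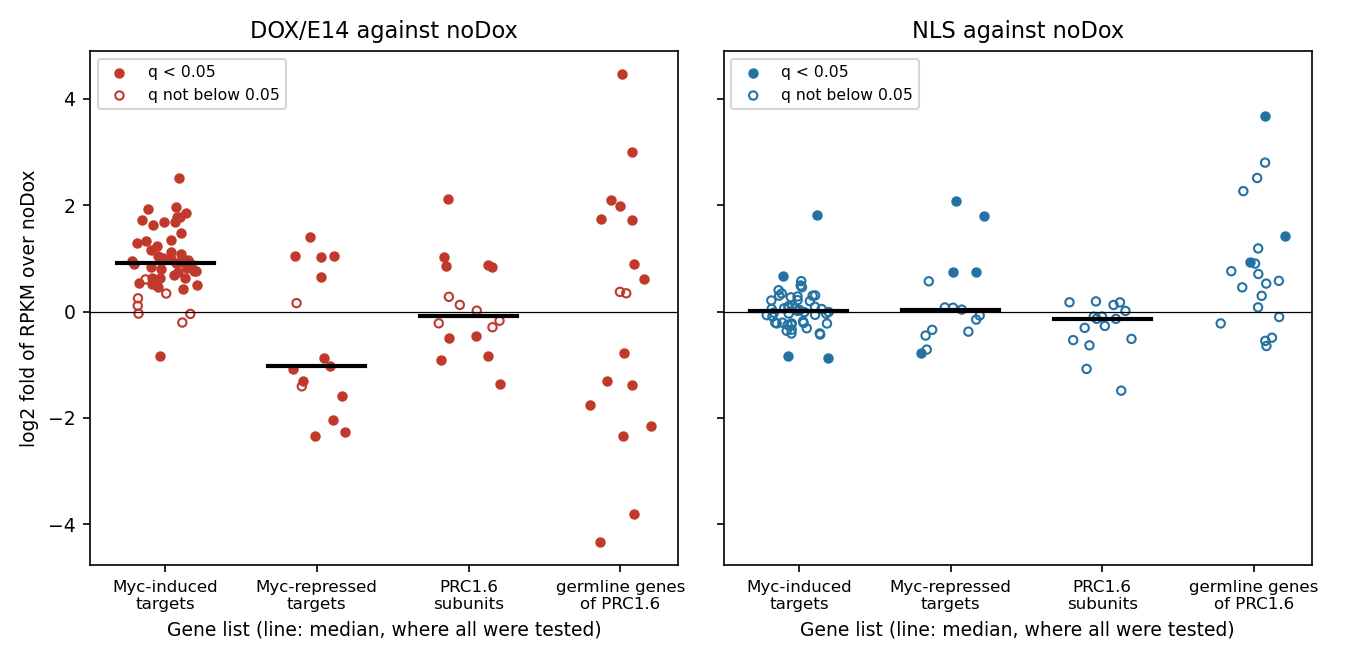
Log2 fold of RPKM over noDox (vertical axis) of each tested gene in 4 lists, for DOX/E14 (left) and NLS (right); filled points passed q < 0.05, and the black line is the median of a list of which all genes were tested. In DOX/E14 the Myc-induced genes have a median of 0.91 and the Myc-repressed genes one of −1.03, whereas in NLS these medians are 0.0030 and 0.038.

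Among the genes of proteins that act with the network, 3 of 18 Myc cofactors rose (16.7%) and 4 fell (22.2%) in DOX/E14, both below the 27.2% and 28.3% of all tested genes (median log2 fold −0.10). Ruvbl2 and Ruvbl1, paired ATPases of the TIP60 complex, rose from 69.5 to 183 and from 29.7 to 56.2 RPKM, while Actl6a rose from 56.3 to 88.8 RPKM. Crebbp, a histone acetyltransferase, fell from 39.9 to 24.4 RPKM, and Ep400 fell from 36.8 to 23.5 RPKM. Of 14 Sin3 and NCoR corepressor genes 6 rose (42.9%) and 3 fell (21.4%), with a median of 0.059. The histone chaperones Rbbp7 and Rbbp4 rose from 93.5 to 200 and from 68.8 to 139 RPKM, while Sap30 rose from 25.7 to 43.7 RPKM. Sin3b, a scaffold that Mxd proteins recruit, fell from 196 to 115 RPKM, and Ncor1 from 65.1 to 34.8 RPKM.

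Of 20 genes that act on Myc protein turnover 7 rose (35.0%) and 3 fell (15.0%) in DOX/E14, beside 27.2% and 28.3% of all tested genes (median 0.25). Set, an inhibitor of the phosphatase PP2A, and Plk1 rose from 63.7 to 178 and from 36.4 to 96.1 RPKM. Gsk3b, the kinase that marks Myc for degradation, fell from 26.2 to 13.2 RPKM, Usp28, a deubiquitinase, from 57.2 to 30.4 RPKM, and Fbxo28 from 17.2 to 11.3 RPKM. The parallel branch of Mlx, Mlxip and Mlxipl had 0 of 3 tested genes called in DOX/E14 by Cuffdiff (2 at an unadjusted p under 0.05 in the authors' deposited table), with log2 folds of −0.055 to 0.73. Of all 12382 genes tested in DOX/E14, 55.5% were called and 7389 had an unadjusted p under 0.05. In NLS 0 of the 18 cofactors, 0 of the 14 corepressor genes, 0 of the 20 turnover genes and 0 of 2 tested Mlx genes were called by Cuffdiff in the authors' deposited table. Of all tested genes 8.36% were called there. At an unadjusted p under 0.05 in that table these counts were 3, 1, 2 and 0.

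Over the 3 groups, the genes with a pattern most like that of a member were taken by the distance between their pairs of log2 folds (DOX/E14 and NLS against noDox), among 11904 other genes tested in both tables. Nearest to Myc was Dnmt3b, the de novo DNA methyltransferase of primed cells, at a distance of 0.27. Dnmt3b had 19.3 RPKM in noDox against 322 in DOX/E14, and 30.8 RPKM in NLS, with log2 folds of 4.06 and 0.64 beside 3.84 and 0.79 for Myc. Sema6a (distance 0.34) and Ddx25 (0.38) followed. The nearest gene to Max was Limk2 (0.0079), to Mxi1 Ino80 (0.0055), to Mxd1 Rnf128 (0.021), to Mxd4 Nkx6-3 (0.0092), to Mnt Fastk (0.014), to Mycl Zfp780b (0.039) and to Mga Efna1 (0.0079). Such a pattern holds 3 values, and the nearest genes of the other members lay closer than those of Myc.

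The groups also differed in markers of cell state, whose part in the network's values was not tested. In bulk RNA, fewer cells of a type and less RNA per cell cannot be told apart. Of all tested genes 27.2% were called higher and 28.3% lower in DOX/E14, and 8.36% were called in NLS. Of 8 genes of undifferentiated and primed cells, 1 rose (Dnmt3b) and 5 fell in DOX/E14, with Nanog going from 431 to 69.3 RPKM, Esrrb from 189 to 33.7 and Sox2 from 184 to 53.2. Zfp42 and Otx2 fell as well, Otx2 from 25.7 to 11.4 RPKM. Pou5f1 (501 RPKM in noDox, 542 in DOX/E14) and Fgf5 (0.0248 and 3.83 RPKM) were not called. In NLS 6 were tested, of which Dnmt3b rose from 19.8 to 30.8 RPKM and Otx2 fell from 26.4 to 16.4 RPKM. Nanog, at 442 RPKM in noDox and 287 RPKM in NLS, had no valid test in that comparison, and Fgf5 was not tested. The summed level of 7 neuroectoderm markers was 33.7 RPKM for noDox, 59.2 for DOX/E14 and 53.1 for NLS. Most of each sum was Tubb3, at 28.9, 30.8 and 45.6 RPKM and called in neither comparison. Sox1, Nes and Pax6 rose in DOX/E14, Nes from 2.86 to 19.0 RPKM, while Nes stood at 4.37 RPKM in NLS. Sox1 and Pax6 were not tested in NLS, at 0.572 and 0.335 RPKM. In NLS 0 of 3 tested were called by Cuffdiff in the authors' deposited table. An unadjusted p under 0.05 was found there for 3, and for 2697 of all 12936 tested genes.

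Markers of other lineages were examined in the same way, beside the same shares of all tested genes (27.2% higher and 28.3% lower in DOX/E14, 8.36% called in NLS). The 10 primitive and visceral endoderm markers summed to 31.8 RPKM for noDox, 47.1 for DOX/E14 and 60.3 for NLS, most of it Lamb1, with Dab2 and Lamb1 rising in DOX/E14, Lamb1 rising in NLS and Afp listed at 0 in every group. The 6 mesoderm markers summed to 3.79, 9.76 and 4.74 RPKM, most of the 9.76 being T at 5.10 RPKM (0.0296 in noDox, not called). Among these markers Eomes rose and Kdr fell in DOX/E14, and 0 of 2 tested were called in NLS (1 at an unadjusted p under 0.05 by Cuffdiff in the authors' deposited table). The 7 trophoblast markers summed to 22.6, 25.5 and 22.2 RPKM, with Ascl2 and Krt7 rising and Tfap2c falling in DOX/E14, and Prl3d1 was listed at 0 in every group. The 8 fibroblast and feeder markers summed to 1.18, 12.6 and 3.17 RPKM, most of the 12.6 being Col1a1 at 7.79 RPKM (0.0485 in noDox, not called). Col1a2 was listed at 0 in noDox and at 2.46 RPKM in DOX/E14, where it was called, and Lum was listed at 0 in every group. In NLS 0 of 4 tested trophoblast markers and 0 of 1 tested fibroblast marker were called by Cuffdiff in the authors' deposited table, and 0 had an unadjusted p under 0.05.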

How the data were processed

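RNA of 8 libraries was prepared from whole cells with ribosomal RNA depletion, per the labels' protocols. Reads were handled with bcl2fastq 2.17.1, TopHat and Cuffdiff, per the submitters' processing notes; those notes name the build mm10; other versions and strand use are not given in the sources used here. The authors deposited 1 RPKM value per gene and group, pooled over 2 libraries. The deposited tables also hold a Cuffdiff test statistic (a score), a p-value and a q-value for each gene, and a summary of the authors' log2 folds was used only as a check. Its sign was that of the RPKM values for 12174 of 12174 tested genes in DOX/E14 and 12318 of 12735 in NLS, with all 10 members among them; the other 417 had absolute log2 folds of at most 0.038.

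Depth and spread between libraries are unknown, and the p-values rest on 2 libraries a group, whose spread may be technical. In DOX/E14 the implied SE was almost the same for Actl6a (0.256), Aurka (0.256), Plk1 (0.258) and Gsk3b (0.257), but 1.01 for Mxd3. It therefore need not be the spread of each gene between its libraries. How Cuffdiff modelled that spread is not given in the sources used here. Computed here (Python 3.11.15, pandas 2.3.3, scipy 1.17.1) were log2 folds, SE as absolute log2 fold over absolute statistic, intervals of 1.96 SE, and a two-sided z test of the difference of folds with Benjamini-Hochberg adjustment over 11905 genes. The z test was also run on simulated data, drawn as independent normal folds with the same SEs. Those data therefore do not check the sharing of noDox or the size of the SE. That z test takes the folds as independent although they share noDox, and uses a normal approximation with 2 libraries a group, so its passes are given without p.

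The 10 members and 14 other lists were chosen with earlier results of these data known. Of 220 list entries 217 matched by symbol and 3 by an older symbol. From each list the called genes with the 3 largest folds per direction, with at least 1 RPKM in a group, and those against the list's direction are named, except for some genes that are not reported here. The alternatives were q < 0.01, an absolute log2 fold of at least 1, unadjusted p, a filter at 1 RPKM, pseudocounts of 0.1 and 1 RPKM, median centring, and SE from p.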

Additional observations from a re-analysis of the deposited data

How the results depend on the processing

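No result reversed under an alternative. Requiring an absolute log2 fold of at least 1 as well as q < 0.05 left 5 of 8 called members in DOX/E14 (Max, Mxd1, Mxd4, Mxi1 and Myc) and 0 of 1 in NLS, where q < 0.01 also left 0 and an unadjusted p under 0.05 gave 2 (Myc and Mycl). Over all genes the fold requirement left 3897 of 6878 calls in DOX/E14 and 642 of 1081 in NLS, q < 0.01 left 531 in NLS, and an unadjusted p gave 2697 there. In the DOX/E14 lists the fold requirement left 1 of 7 called Myc cofactors, 2 of 9 corepressor genes, 4 of 10 turnover genes, 20 of 43 Myc-induced genes, 3 of 10 PRC1.6 subunits and 1 of 2 endoderm markers. In NLS it left 1 Myc-induced gene, 2 Myc-repressed genes, 0 genes of undifferentiated and primed cells and 0 endoderm markers, and q < 0.01 left 2, 2 and 0 of the first 3 lists and 1 germline gene. These alternatives are stricter or looser by construction. With SE from the p-values the folds of 6 members differed between the comparisons instead of 2. Above the lowest p-value, z from p was 1.41 times the statistic at the median in DOX/E14 and 1.42 times in NLS. The SE from p is smaller by that much at the median. Cuffdiff p-values go no lower than 5e-05, and at that value the SE from p no longer follows the statistic. Why the p-values and the statistic disagree was not tested. The members' log2 folds kept their sign under pseudocounts and under centring, which subtracts the median of expressed genes, 0.035 in DOX/E14 and −0.022 in NLS.

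No paired analysis was possible because the columns carry 1 value per group and no replicate number. Leaving out each replicate was not run for the same reason, and no library can be checked for standing apart. What depth limits is unknown here, since the files give no counts.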
